A study of Mus musculus with 2 samples.

Results

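The genes described here encode the enzymes that build cholesterol from acetyl-CoA, the SREBP2 system that controls them, and the proteins that move or store sterols. The list holds 29 genes, and its members were taken as every probe set whose platform symbol is a listed gene. Of the 29 genes, 26 had a probe set, out of 18193 named genes on the array, and these 26 genes were covered by 59 probe sets. Acat2, Soat1 and Soat2 were not analysed here, so thiolysis at the entry of the pathway and sterol esterification are not covered. The study measured liver RNA of male 129SvEJ mice, 8 weeks old, that were either wild type or PPARα-deficient (pparalpha -/-, called Ppara-null below). All mice ate chow containing 0.2% fenofibrate for 7 days, and fenofibrate is a drug that activates PPARα, a lipid-sensing nuclear receptor of hepatocytes. For each genotype, RNA from 3 mice was pooled and hybridised to 1 array, which gives 2 arrays in all. No array without the drug was analysed here, so a genotype difference that is present on plain chow and a difference in drug response cannot be told apart.

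Cholesterol synthesis starts in the cytosol, where acetyl-CoA units are joined to HMG-CoA, reduced to mevalonate and turned into isoprenoids. Pairs of farnesyl units form squalene, which is closed into lanosterol and trimmed to cholesterol at the endoplasmic reticulum. When membrane sterol is low, Scap escorts the precursor of SREBP2, encoded by Srebf2, from the endoplasmic reticulum to the Golgi, where it is cut into an active transcription factor. When sterol is high, the Insig proteins hold Scap back. Most enzymes of the pathway, and Insig1 and Stard4, are known SREBP2 targets, and the promoters of such genes often combine sterol regulatory elements with sites for the factor NF-Y, which binds CCAAT.

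Promoters are shown for the 3 genes with the largest wild-type excess, Hmgcs1, Idi1 and Hsd17b7, and for Insig1, a target of the same factor whose signal was lower in wild type. Each line gives the 250 bases before the RefSeq transcription start (GRCm38.p6), 5′ to 3′ on the gene's strand, with matches to TCACNCCAC (a core of sterol regulatory elements) and CCAAT on either strand in capitals, where ATTGG is CCAAT read on the opposite strand.
Hmgcs1, chr13:119690101-119690350, plus strand: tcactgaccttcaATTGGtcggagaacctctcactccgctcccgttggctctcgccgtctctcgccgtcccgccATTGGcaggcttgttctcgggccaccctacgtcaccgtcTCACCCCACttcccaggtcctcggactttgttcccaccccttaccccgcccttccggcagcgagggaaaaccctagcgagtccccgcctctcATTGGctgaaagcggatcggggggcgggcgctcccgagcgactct
Idi1, chr13:8885356-8885605, plus strand: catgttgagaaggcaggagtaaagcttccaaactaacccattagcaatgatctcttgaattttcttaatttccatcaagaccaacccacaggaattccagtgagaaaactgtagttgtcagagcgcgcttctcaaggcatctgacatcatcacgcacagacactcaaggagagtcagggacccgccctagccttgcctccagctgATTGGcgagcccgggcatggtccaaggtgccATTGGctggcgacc
Hsd17b7, chr1:169969206-169969455, minus strand: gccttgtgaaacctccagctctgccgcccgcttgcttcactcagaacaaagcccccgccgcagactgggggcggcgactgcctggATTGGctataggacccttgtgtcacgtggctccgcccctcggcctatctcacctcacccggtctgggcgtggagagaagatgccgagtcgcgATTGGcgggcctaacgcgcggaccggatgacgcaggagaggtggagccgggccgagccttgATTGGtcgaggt
Insig1, chr5:28071162-28071411, plus strand: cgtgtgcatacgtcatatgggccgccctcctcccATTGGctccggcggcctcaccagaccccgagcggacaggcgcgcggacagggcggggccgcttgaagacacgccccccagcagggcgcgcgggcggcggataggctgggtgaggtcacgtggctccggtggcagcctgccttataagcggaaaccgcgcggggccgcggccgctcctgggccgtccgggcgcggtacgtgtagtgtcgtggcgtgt
In Hmgcs1 the TCACNCCAC match, on the gene's strand, ran from base -137 to base -129 relative to the start. The reverse-strand CCAAT of Idi1 nearest to the start lay at -14 to -10, that of Hsd17b7 at -12 to -8, and the single one of Insig1 at -216 to -212. Promoter windows of 300 bases (250 before and 50 after the start) were found for 21 of the 26 genes, 27 windows in all. CCAAT occurred in 20 of the 27 windows, against 37.4% of all 32851 windows. By gene, it occurred in 20 of the 21, Scap being the exception. The share was 43.0% among the 8199 genes that had a window and gave signals above the floor on both arrays. TCACNCCAC occurred in Hmgcs1 alone among the 21 genes, against 1.45% of those 8199 genes. It was in 1 of the 27 windows, against 1.24% of all windows. The longer sterol regulatory element (SRE-1) and the perfect direct repeat DR1, an idealised form of the site used by PPARα, were in 0 of the 21 genes. Their shares were 0.0366% and 0.0610% of the 8199 genes, and 0.0913% and 0.0396% of all windows. These matches describe letters in a short window and say nothing about occupancy.

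Values are signal intensities on a linear scale, in arbitrary units, and each is a single measurement without replicate. The signals of different probe sets are not levels that can be set against each other, so ratios of wild type over null at the same probe set are used throughout. A floor was placed at each array's median signal, 287.8 in wild type and 269.4 in null. Of the 59 probe sets, 49 were above it on both arrays, 4 on 1 array and 6 on neither. Each gene is represented by its brightest probe set, and all 26 were above the floor on both arrays. As a yardstick of scatter within this pair of arrays, log2 ratios of different probe sets of the same gene had a pooled SD of 0.42 over 3917 genes, or 1.34-fold, which leaves out differences between mice and pools. Among the sterol genes the same SD was 0.30, over 36 probe sets of 13 genes. Ppara itself gave 7957 in wild type and 3414 in null at its brightest probe set. Which exons of Ppara the null allele lacks is not given in the labels, so this signal does not check the deletion.

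Transcripts of most cholesterol synthesis enzymes gave a higher signal in wild-type than in Ppara-null liver. Their median ratio was larger before squalene synthesis than from that step on. Insig1, Stard4, Npc1 and Mvk gave a lower signal in wild type. Over the 26 genes, the median log2 ratio was 0.25 (1.19-fold), against 0.005 over all 13041 measured genes. A higher wild-type signal was found for 18 of the 26 genes, compared with 47.8% of the 10060 genes above the floor on both arrays. Among genes with a mean signal of at least 1000, where 43.2% of 6029 genes were higher in wild type and the median was -0.06, 17 of 23 sterol genes were higher, with a median of 0.26. Ratios of at least 2-fold were reached by 3 genes towards wild type, Idi1, Hsd17b7 and Hmgcs1, where the share of all measured genes was 4.99%. In the opposite direction 0 of the 26 were at least 2-fold apart, against 2.80% of all genes. At 1.5-fold, 7 were higher (14.8% of all genes) and 3 lower (11.0%). Of the 26, 12 lay within 1 scatter SD of equal signals, 10 were above that range and 4 below it, compared with 17.3% of genes above the floor on both arrays that were above the range and 17.6% below, so the 4 were no larger a share than among all genes. Most of the genes with a higher wild-type signal were thus under 2-fold.

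**Figure D1:**
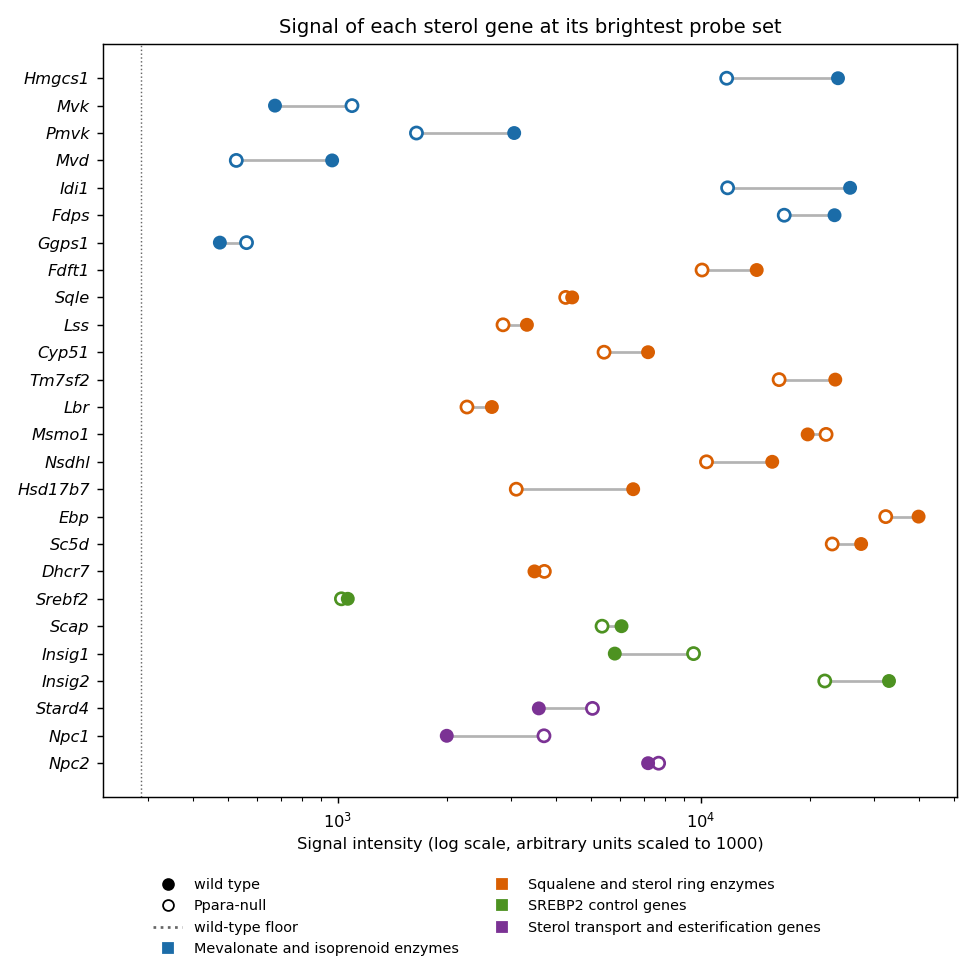
Signal intensity (log axis, arbitrary units) of the 26 sterol genes at their brightest probe set on the wild-type array (filled) and the Ppara-null array (open), coloured by role, 1 array of pooled RNA per genotype. The gap between the circles of a gene is its ratio; positions of different genes are not comparable levels. The widest gaps towards wild type are those of Idi1 (25827 against 11872), Hsd17b7 and Hmgcs1, and the widest towards null is that of Npc1 (1998 against 3703).

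Enzymes of the mevalonate and isoprenoid steps had the largest group median, a log2 ratio of 0.88 (1.84-fold) over 7 genes, of which 5 were higher in wild type. That median is the value of Mvd, a dim gene described below, and the 7 log2 ratios ran from -0.70 to 1.12. Hmgcs1, the cytosolic HMG-CoA synthase that makes HMG-CoA, gave 23918 in wild type and 11802 in null at its brightest probe set (1433443_a_at), a 2.03-fold difference. Its other probe sets above the floor gave 16461 against 9398, 10327 against 5887, and 6106 against 2681, with log2 ratios from 0.81 to 1.19. The 4 probe sets thus pointed the same way, and the remaining probe set was dim on both arrays (15.8 and 20.3).

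The kinases and the decarboxylase that turn mevalonate into isopentenyl diphosphate differed in direction. Mevalonate kinase, Mvk, was lower in wild type, at 671.9 against 1095 (log2 ratio -0.70), and its second probe set, under the floor in wild type, also leaned to null (250.5 and 339.8). Pmvk, the phosphomevalonate kinase that acts next, was 1.86-fold higher in wild type, at 3065 against 1649. Mvd, the decarboxylase, was 1.84-fold higher at a dim probe set (965.6 against 525.6), while its other probe set gave 454.5 against 369.6 (log2 ratio 0.30). Mvk was thus the only enzyme of the 3 with a lower wild-type signal, and 6.57% of genes above the floor on both arrays had a lower ratio than Mvk.

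Idi1, the isomerase that makes dimethylallyl diphosphate from isopentenyl diphosphate, had the largest ratio of all 26 genes. It gave 25827 against 11872 (1451122_at), 2.18-fold, and 11280 against 6897 at its second probe set (log2 ratio 0.71). Ratios above that of Idi1 were found for 2.58% of genes above the floor on both arrays. Fdps, the farnesyl diphosphate synthase, was higher by a smaller ratio of 1.38-fold, at 23397 against 17003. A further Fdps probe set gave 366.4 against 9.3, which is at least 1.36-fold because the null signal was under the floor. Ggps1, which leaves the sterol route to make geranylgeranyl diphosphate for protein prenylation, had no settled direction. Its 4 probe sets, all dim, gave 473.6 against 560.9, 431.1 against 585.5, 615.3 against 355.6 and 327.3 against 298.3, so a pair pointed each way, with log2 ratios from -0.44 to 0.79.

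Enzymes from squalene synthesis to cholesterol were higher in wild type in 10 of 12 cases, and their median log2 ratio was 0.28 (1.22-fold). Fdft1, the squalene synthase at the branch into sterols, gave 14280 against 10095 (log2 ratio 0.50) and 6345 against 4178 (0.60). A dim probe set of Fdft1 pointed the other way, at 106.5 and 368.4. Sqle, the squalene epoxidase and a rate-limiting enzyme of this part, was nearly level at 4428 against 4250 (0.06). Lss, the cyclase that forms lanosterol, gave 3323 against 2855 (0.22) and, at a second probe set, 724.1 against 768.7 (-0.09). The first committed sterol step thus differed by slightly more than the scatter between probe sets, and the next steps by less.

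The enzymes that strip methyl groups from lanosterol differed among themselves. Cyp51, the lanosterol demethylase, gave 7166 against 5420, 1901 against 1349 and 393.9 against 311.5, with log2 ratios of 0.34 to 0.49 at all 3 probe sets. Tm7sf2 and Lbr can both reduce the sterol double bond that Cyp51 leaves, and Lbr is also a protein of the nuclear envelope. Tm7sf2 gave 23509 against 16461 (log2 ratio 0.51) and Lbr 2661 against 2272 (0.23), so the ratio was larger for Tm7sf2, by less than the scatter SD. Msmo1, Nsdhl and Hsd17b7 act in turn on the remaining methyl groups, as an oxidase, a dehydrogenase that removes the carboxyl group, and a ketoreductase. Msmo1 was slightly lower in wild type (19729 against 22177, log2 ratio -0.17), Nsdhl was 1.52-fold higher (15759 against 10383), and Hsd17b7 was 2.10-fold higher (6521 against 3106, 1457248_x_at). Other probe sets of Hsd17b7 gave 3762 against 2205 and 1820 against 1129 (log2 ratios 0.77 and 0.69), and a dim one 322.2 against 304.5 (0.08). The 2-fold difference of Hsd17b7 rests on a probe set of the _x_at type, whose probes can also bind other transcripts, and the remaining probe sets put it under 2-fold.

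The last enzymes, which move and reduce the double bonds of the rings, lay within the scatter at their brightest probe sets. Ebp, the sterol isomerase, gave 39884 against 32381 (log2 ratio 0.30). Sc5d, the desaturase after it, gave 27701 against 23054 (0.26) at its brightest probe set and log2 ratios of 0.59 and 0.52 at the others (5356 against 3550, and 1535 against 1069). Dhcr7, the final reductase, was level at 3486 against 3711 (-0.09). The median ratio of the 19 enzymes of both groups was 1.32-fold. The ordering of the groups, 0.88 before squalene synthesis and 0.28 from that step on, describes these 2 arrays without a test.

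**Figure D2:**
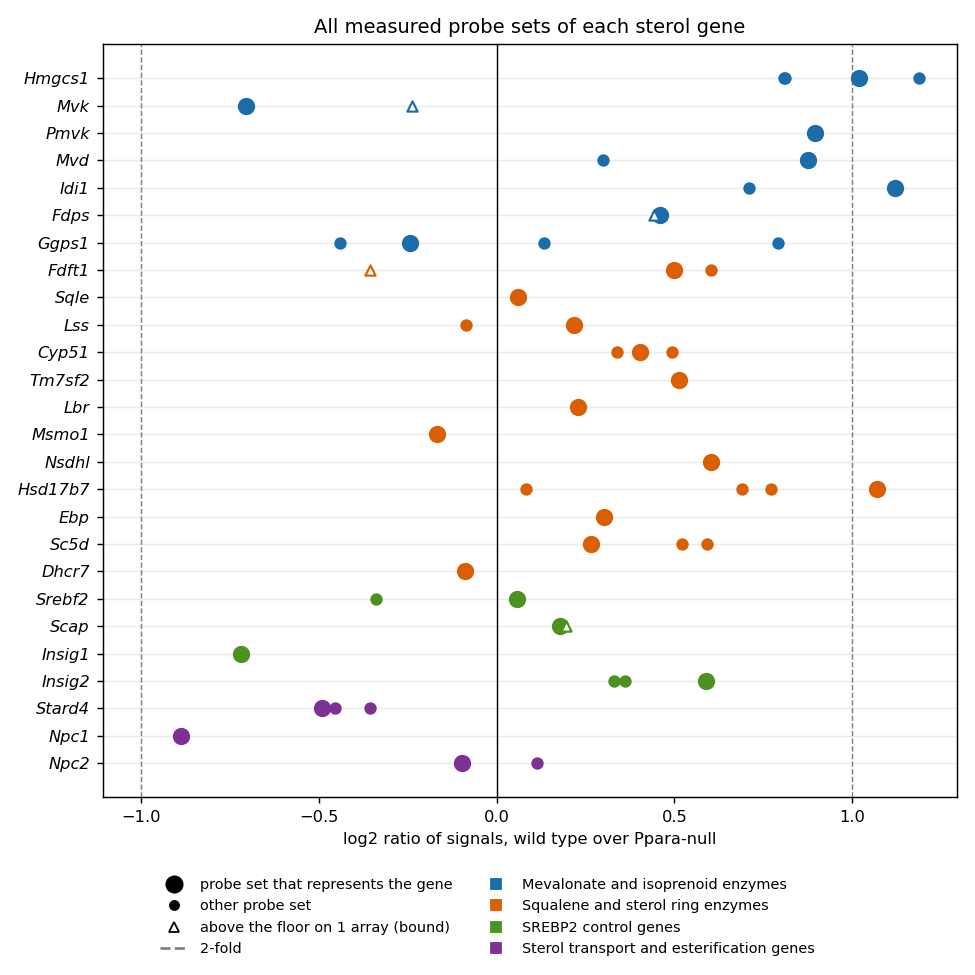
Log2 ratio of signals, wild type over Ppara-null, for every probe set above the floor on at least 1 array, by gene and coloured by role; large circles represent the gene, small circles are its other probe sets and triangles are bounds. Hmgcs1, Idi1, Cyp51, Sc5d and Insig2, for example, lie to the right of 0 at all their circles and Stard4 to the left, while the circles of Ggps1, Lss, Srebf2 and Npc2 fall on both sides.

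Where several probe sets of a gene were above the floor on both arrays, which held for 13 genes, they all favoured wild type in 8 and null in 1 (Stard4), and they disagreed in sign in 4 (Ggps1, Lss, Srebf2 and Npc2). The 4 genes with mixed signs had representative log2 ratios between -0.24 and 0.22, inside the scatter. The same counts were not made over all genes with several probe sets, so these have no background share beside them.

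The control genes did not share a direction. Srebf2, the transcription factor, was level at 1066 against 1024 (log2 ratio 0.06), and its second probe set gave 421.1 against 533.3 (-0.34). Scap, the escort protein, gave 6056 against 5352 (0.18). The transcripts of the factor and of its escort therefore differed by less than the scatter while those of several target enzymes exceeded it. SREBP2 activity depends on cleavage of the protein, which the arrays do not measure.

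The Insig genes pointed in opposite directions. Insig1, the retention protein that SREBP2 itself induces, was lower in wild type at its only probe set (1454671_at), with 5803 against 9564 and a log2 ratio of -0.72, or 1.65-fold towards null. Insig2, whose liver transcript is known to be under different control, was higher in wild type at 33057 against 21991 (log2 ratio 0.59), and its further probe sets gave 21237 against 16908 and 10061 against 7835 (log2 ratios 0.33 and 0.36). Ratios lower than that of Insig1 occurred in 6.19% of genes above the floor on both arrays. Insig1 thus lay on the side of equal signal opposite to 5 of the 7 mevalonate and isoprenoid enzymes, and on the same side as Mvk. Ggps1 also lay on that side at its brightest probe set, but its probe sets disagreed in sign.

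The sterol transport genes were level or lower in wild type, and the median of their 3 log2 ratios was -0.49. Stard4, a cytosolic sterol carrier and SREBP2 target, gave 3584 against 5037, 2987 against 4094 and 2860 against 3662, with log2 ratios from -0.49 to -0.36. Its 3 probe sets were all lower in wild type, the direction also seen for Insig1. Npc1, the lysosomal membrane protein that exports cholesterol taken up with lipoproteins, had the lowest ratio of the 26 genes, at 1998 against 3703 (1423086_at, log2 ratio -0.89, 1.85-fold towards null). Npc2, its soluble partner in the lysosome, was level at 7169 against 7664 and 6852 against 6339 (-0.10 and 0.11). The partners in lysosomal export thus differed from each other, with 3.43% of genes lower than Npc1.

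**Figure D3:**
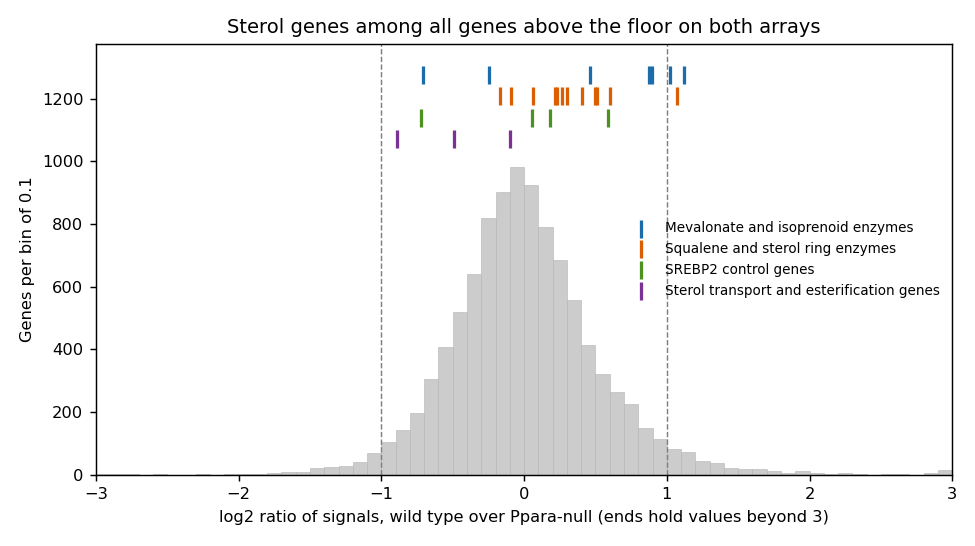
Histogram of log2 ratios, wild type over Ppara-null, for the 10060 genes above the floor on both arrays (grey, genes per bin of 0.1), with the 26 sterol genes as ticks in 4 rows by role and dashed lines at 2-fold. Most enzyme ticks lie to the right of the peak, 3 of them beyond the 2-fold line, and the 3 transport ticks lie at or to the left of it.

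Further genes of sterol regulation, transport, prenylation and efflux stayed nearer to equal signal. Of 25 such genes with a probe set 24 were measured, 11 with a positive and 13 with a negative log2 ratio, with a median of -0.08. At least 2-fold apart were 0 of the 24, where 4.99% of all measured genes were higher in wild type and 2.80% lower. The 1.5-fold mark was passed by 1 gene towards wild type and 2 towards null, against 14.8% and 11.0% of all measured genes. The proteases that release SREBP2 at the Golgi were level, with Mbtps1 at 3311 against 2924 and Mbtps2 at 960.7 against 892.5. At 1.5-fold, Abcg5, which with Abcg8 forms the exporter of sterols into bile, was higher in wild type at 7924 against 4806, and Abcg8, given here after its value was seen, gave 3683 against 2588 (log2 ratios 0.72 and 0.51). Erlin1 and Erlin2, endoplasmic reticulum proteins known to restrain SREBP activation, were lower at 3890 against 6095 and 1204 against 2112 (-0.65 and -0.81).

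All 7 measured hepatocyte markers of 8 listed, which include albumin (192642 against 212369), were bright on both arrays and had log2 ratios between -0.45 and -0.14. In bulk liver, fewer cells of a type and less RNA per cell cannot be told apart. Of 6 measured Kupffer cell and macrophage markers out of 7, 5 were dimmer in wild type, as were the 7 hepatocyte markers. Among all genes above the floor on both arrays, 47.8% were higher in wild type. The macrophage list had a median log2 ratio of -0.63 and a summed signal of 14856 against 21593, with 0 of the signals at 0. Clec4f, which defines Kupffer cells, gave 1850 against 3003, and Marco was under the floor on both arrays. The part of these cells in the values of Npc1, Stard4 or Insig1 was not tested. Endothelial, stellate and cholangiocyte lists had 5, 4 and 3 measured markers, with medians of -0.09, -0.15 and -0.24. Of the cholangiocyte markers 0 were above the floor on both arrays, so their values are bounds. The lymphocyte list had 1 measured marker, Ptprc, at 822.8 against 363.5 (log2 ratio 1.18). Its Cd3e, Cd3g and Cd79a were under the floor on both arrays, so the list gives no direction for lymphocytes.

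Directions are relative to the scaling. All 18 hybridization control probe sets, which detect foreign control RNA added to the sample, were dimmer on the wild-type array, with a median log2 ratio of -0.38. Scaling to them raises each log2 ratio by that amount and the median over all measured genes to 0.38. Msmo1, Dhcr7, Npc2 and Ggps1 then turn to a higher wild-type signal (0.21, 0.29, 0.28 and 0.14). Mvk, Insig1, Stard4 and Npc1 keep a lower one, at smaller log2 ratios of -0.33, -0.34, -0.11 and -0.51. Of these, only Npc1 then lies beyond the probe set scatter of 0.42. At 1.5-fold the counts of 7 higher and 3 lower become 15 and 0. Over all measured genes, the 2-fold calls were 651 towards wild type and 365 towards null as deposited, and 1759 and 109 after that scaling. Because all ratios rise by the same amount, the distance between the sterol genes' median and that of all genes, 0.24, is unchanged by construction.

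**Figure D4:**
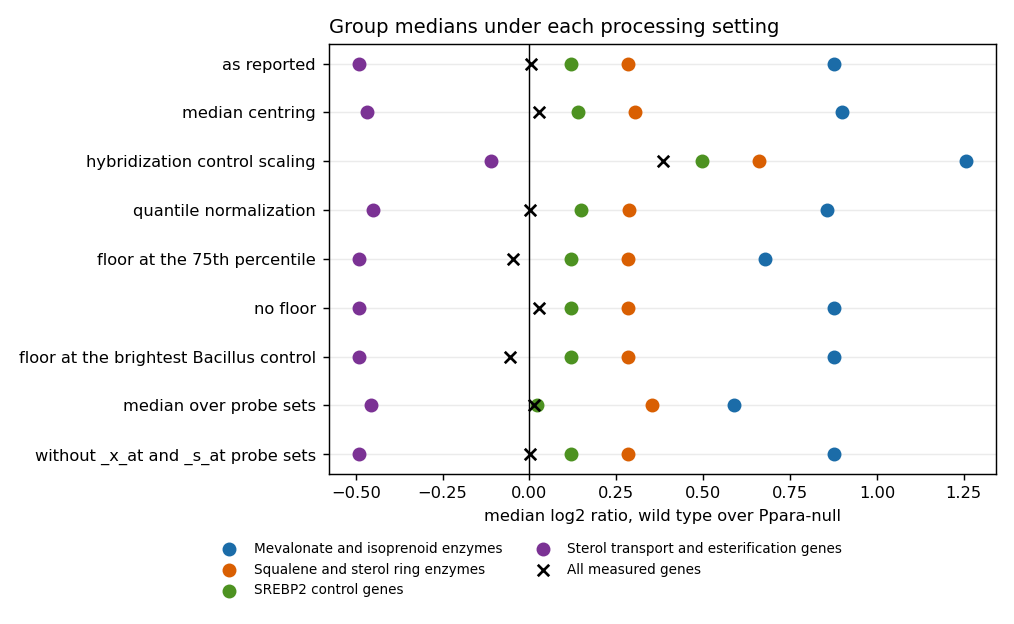
Median log2 ratio, wild type over Ppara-null, of the 4 sterol gene groups (coloured circles) and of all measured genes (crosses) under the reported setting and 8 alternatives. The mevalonate group stays rightmost (0.59 to 1.26) and the transport group leftmost (-0.49 to -0.11) in each, and hybridization control scaling moves groups and crosses to the right together.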

How the data were processed

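Per the labels, liver RNA of 3 mice per genotype was pooled and hybridised to 1 Affymetrix array each. The deposited values are signal intensities on a linear scale, which the authors made with the Affymetrix statistical algorithm scaled to a target of 1000, per the labels. The mean after trimming 2% at each end was 1000.01 on both arrays. The software version is not given in the sources used here, and the labels carry the same scanner text for both arrays, so that text was not used. Array results have no genome build, and the number of arrays limits the precision.

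Symbols came from the platform annotation of 2016. Of 45037 probe sets that are not controls, 34945 had 1 symbol, 932 several and 9160 were unnamed here; 34741 were found by gene identifier in the RefSeq table of GRCm38.p6, with 0 symbols changed. Signals under an array's median were raised to it, a gene was its brightest probe set by mean log2 signal, and it was measured when above the floor on at least 1 array. With 1 array per group no test, error or p-value exists, and genes were called at 2-fold. All 29 listed genes were to be named, and of the further list any gene at least 2-fold apart; some items are not reported here. The genes named from the further list, Abcg5, Abcg8, Erlin1, Erlin2, Mbtps1 and Mbtps2, were chosen after their values were seen. The members, lists and alternatives were chosen with earlier results of these data known. The processing was run on simulated data with planted differences larger than those of the sterol genes and noise set to the probe set scatter. That run does not cover ratios near 2-fold or differences between mice and pools, so it does not test the calls made here. Calculations used Python 3.11.15, numpy 2.4.6, pandas 2.3.3 and matplotlib 3.10.9. Promoter sequences are RefSeq's.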

Additional observations from a re-analysis of the deposited data

How the results depend on the processing

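The count of genes at least 2-fold higher in wild type, 3 as reported, was 5 after hybridization control scaling (Pmvk and Mvd added), 0 when a gene's probe sets were summarised by their median, 2 without _x_at and _s_at probe sets, and 7 at a threshold of 1.5-fold. It was 3 after median centring, quantile normalization and all 3 other floors. The count at least 2-fold lower was 0 in all 8 alternatives and 3 at 1.5-fold. At 1.5-fold under hybridization control scaling, 15 genes were higher and 0 lower. The median over the genes ranged from 0.24 to 0.63, the last under hybridization control scaling. The group medians kept their sign in all 8 alternatives. Their largest moves were those of control scaling, which shifts every group by the same amount. It took the median of the SREBP2 control genes from 0.12 to 0.50 and that of the transport genes from -0.49 to -0.11. With the median over probe sets, the mevalonate group median was 0.59 and that of the squalene and sterol ring enzymes 0.35, so the groups lay closer together. With floors at the 75th percentile these were 0.68 and 0.28. Among single genes, Ggps1 went from -0.24 to 0.79 without _s_at and _x_at probe sets, which leaves another probe set, and Mvd to 0.24 with the 75th percentile floor, which lies above its null signal and above Ggps1 on both arrays. In the same alternatives, or with the median over probe sets, Lss (-0.09), Srebf2 (-0.14) and Npc2 (0.01) changed sign near 0. Weak signals limit Mvk, Mvd, Ggps1 and Srebf2, and 1 pool per genotype limits every value. No paired analysis was possible because each genotype has 1 array.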
